A study of Mus musculus with 59 samples.

Results

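*Khdc3*, *Ooep*, *Tle6*, *Nlrp5* and *Padi6* encode proteins that assemble in the mammalian egg, and their mRNA levels were followed here in mouse embryonic stem cells (ESCs) and in embryoid bodies (EBs) with and without Polycomb proteins. The 5 genes were chosen by symbol from 24391 genes in the deposited expression tables, because they belong to 1 complex and because *Khdc3* was known from these data to be higher in *Pcgf1*-KO EBs. That contrast chose the genes, so values in *Pcgf1*-KO against control EBs are given as a description with no test, as is every stage difference of *Khdc3* that rests on the same EB libraries.

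Poly(A) RNA was sequenced from 59 libraries of 6 ESC lines, each of which carried a tamoxifen-inducible Cre (ERT2-Cre) in controls and mutants alike. All but the point mutant line were derived from blastocysts with the Cre at *Rosa26*. Controls were kept without 4-hydroxytamoxifen (4-OHT) and mutants were treated with it. ESCs were grown on mouse embryonic fibroblasts with LIF and 3 kinase inhibitors, and EBs were made over 2 days in suspension without these factors. The *Pcgf1* line (ERT2-Cre;Pcgf1f/f, which becomes Pcgf1delta/delta) gave 4 control ESC, 5 *Pcgf1*-KO ESC, 5 control EB and 5 *Pcgf1*-KO EB libraries. The point mutant line gave 2 libraries in each of the same 4 groups. Its controls are labelled ERT2-Cre;Ring1apm/pm;Ring1b and so already carry point mutant *Ring1a*, and its mutants are labelled Ring1apm/pm;Ring1bpm/pm. The other 4 lines gave 32 libraries, again with 2 in each group. They were ERT2-Cre;Ring1a-/-;Ring1bf/f, in which the controls already lack *Ring1a*, ERT2-Cre;Pcgf2f/f;Pcgf4f/f, ERT2-Cre;Pcgf3f/f;Pcgf5f/f and ERT2-Cre;Pcgf6f/f. Each genotype is 1 line, and no label says that replicates were separate derivations, so p-values measure the spread between these libraries, which may be technical. Levels are in TPM, transcript abundances normalized to length and library size, which allow genes to be compared per length and sum to 1000000 in each library.

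In the egg and early embryo, NLRP5 (MATER), OOEP (FLOPED), TLE6 and KHDC3 (FILIA) form the subcortical maternal complex, and the peptidylarginine deiminase family member PADI6 is needed for the cytoplasmic lattices with which that complex is associated. Loss of these proteins in the mother is known to arrest or impair early cleavage of the embryo. KHDC3 and OOEP are small proteins with a KH-type RNA-binding fold, TLE6 is a divergent member of the Groucho corepressor family and NLRP5 is an NLR protein with leucine-rich repeats. KHDC3 is also known outside the egg, in ESCs, where it acts in the response to DNA damage. PCGF1 and RING1A/B are subunits of Polycomb repressive complex 1 (PRC1). RING1A and RING1B are the E3 ligases that ubiquitylate histone H2A, and 1 of 6 PCGF proteins defines each type of PRC1. PRC1 is known to bind promoters rich in CpG dinucleotides.

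Promoter sequence is shown because the members that were expressed here differ in CpG content. In the mm9 build (GENCODE annotation), *Khdc3* (there named 2410004A20Rik) lies on chromosome 9 at 72949643–72952250, plus strand, and *Ooep* on the same chromosome at 78223916–78226532, minus strand, 5.27 Mb away. *Tle6* lies on chromosome 10 at 81053649–81063818, minus strand, *Nlrp5* on chromosome 7 at 24170908–24226941, plus strand, and *Padi6* on chromosome 4 at 140283270–140298558, minus strand. Promoters of all 5 members were found in RefSeq (GRCm38.p6), and the 250 bases before each RefSeq start matched mm9 exactly once. These windows overlap GENCODE gene models: that of *Khdc3* lies inside the gene as bounded above, since 1 transcript begins farther upstream, and ends just before or upstream of where its other transcripts begin, and the *Ooep* and *Tle6* windows each cover part of a first exon. In the windows of 250 bases, *Khdc3* had no CpG, a property of 6.88% of 17215 mouse promoters, *Ooep* had 11 CpG and the 2 windows of *Tle6* had 17 and 1, against a median of 10. *Padi6* had 1 CpG, and the 2 windows of *Nlrp5* had 1 and 7. The upstream *Tle6* window, with 17 CpG, also held 2 copies of CACGTG, and the other window of *Tle6* held none. CACGTG is an E-box of the kind that MYC and MAX proteins bind and which reads the same on both strands. Windows with at least 1 copy made up 6.86% of all promoters and those with at least 2 made up 0.627%. For *Khdc3*, *Ooep* and the upstream window of *Tle6*, the longest stretch outside annotated exons is given 5′ to 3′ on the gene's strand in mm9, followed by 30 bases around each E-box, with CpG and CACGTG in capitals. The first E-box stretch spans the upstream edge of an annotated *Tle6* exon and the second lies within that exon.
*Khdc3*, chr9:72950012-72950204, plus strand: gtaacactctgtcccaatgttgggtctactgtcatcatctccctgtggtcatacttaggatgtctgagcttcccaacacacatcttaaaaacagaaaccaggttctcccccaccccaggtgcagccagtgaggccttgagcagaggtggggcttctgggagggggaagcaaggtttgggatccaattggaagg
*Ooep*, chr9:78226533-78226645, minus strand: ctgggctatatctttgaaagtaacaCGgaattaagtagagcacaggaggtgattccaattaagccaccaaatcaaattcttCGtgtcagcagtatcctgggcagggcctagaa
*Tle6*, chr10:81063646-81063723, minus strand: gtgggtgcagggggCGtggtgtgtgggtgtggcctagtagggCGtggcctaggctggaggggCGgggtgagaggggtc
*Tle6*, chr10:81063811-81063840, minus strand, around the first E-box: tggctCGcagccCACGTGggctCGcCGcct
*Tle6*, chr10:81063747-81063776, minus strand, around the second E-box: gagtcCGgggccCACGTGcacCGtggcctg
The capitals thus mark 0 CpG in 193 bases of *Khdc3*, 2 in 113 bases of *Ooep* and 3 in 78 bases of *Tle6*. The stretches differ in position, since those of *Khdc3* and *Tle6* lie inside the genes as bounded above and that of *Ooep* lies upstream. A match of letters is a description of the sequence and no evidence of binding.

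Only a subset of the complex was expressed in these cells. Over the 59 libraries *Ooep* had the highest level, from 24.4 to 421 TPM, followed by *Khdc3* from 0.621 to 120 TPM and *Tle6* from 2.83 to 20.4 TPM. The ranges of *Khdc3* and the other two overlap, and the order of *Khdc3* and *Tle6* was reversed in control EBs of the *Pcgf1* line, where *Tle6* was the higher of the pair in 4 of 5 libraries. *Nlrp5*, which encodes the large scaffold-like NLR subunit, lay between 0 and 0.772 TPM and never reached 1 TPM. *Padi6* lay between 0 and 2.91 TPM and reached 1 TPM in 23 of 59 libraries. The mRNA of NLRP5, a defining subunit of the complex in eggs, was thus near the bottom of the scale in every library. Because the depth of the libraries is unknown, no limit can be given for the 10 libraries in which *Nlrp5* is listed at 0.

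The labels of the *Pcgf1* and point mutant lines were checked first. *Pcgf1* itself was at 10.7–13.6 TPM in control ESCs and 0.627–2.77 TPM in *Pcgf1*-KO ESCs, and at 7.30–16.6 TPM in control EBs and 0.978–2.47 TPM in *Pcgf1*-KO EBs. *Fgf5*, a marker of the epiblast-like cells formed on exit from the ESC state, was at 2.91–68.5 TPM in the 14 EB libraries of both lines and at 0–0.703 TPM in their 13 ESC libraries. In EBs of the *Pcgf1* line it was at 8.46–45.8 TPM with 4-OHT and 25.4–68.5 TPM in controls, which overlap. In EBs of the point mutant line it was at 2.91–3.06 against 22.7–44.0 TPM. *Klf4*, an ESC transcription factor, was at 4.85–74.6 against 3.54–12.4 TPM in the former EBs and at 104–122 against 37.2–65.1 TPM in the latter. How these stage markers bear on the levels of the members was not tested. The summed level of 15 fibroblast markers, taken as a rough guide to the feeder cells, was 226–322 TPM in ESCs of the *Pcgf1* line, 37.8–83.2 TPM in its control EBs and 20.2–44.3 TPM in its *Pcgf1*-KO EBs. Of these markers only *Lum* was at 0 in all *Pcgf1*-KO EB libraries. In the point mutant line it was 53.9–60.9 TPM in control and 103–131 TPM in mutant ESCs, and 36.8–40.4 TPM in control and 88.7–91.8 TPM in mutant EBs, with *Lum* at 0 in all groups but mutant EBs. These sums were lower in EBs than in ESCs in every same-numbered pair of both lines. With 4-OHT they were lower in the *Pcgf1* line, in 5 of 5 EB and 4 of 4 ESC pairs, and higher in the point mutant line, in 2 of 2 pairs at each stage. Whether these sums reflect feeder cells alone was not tested, nor was their part in the results. In bulk RNA, fewer cells that express a gene and less RNA per cell cannot be told apart.

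*Khdc3* was expressed in ESCs of the *Pcgf1* line, was low in control EBs and stayed higher in *Pcgf1*-KO EBs. In control ESCs it was at 33.7, 43.1, 45.8 and 38.4 TPM in replicates 1 to 4. In control EBs it was at 1.20, 0.688, 0.673, 5.65 and 7.31 TPM in replicates 1 to 5. In *Pcgf1*-KO EBs it was at 22.2, 9.50, 7.91, 62.7 and 57.6 TPM. The control and *Pcgf1*-KO EBs did not overlap, and 1.95% of 20594 tested genes were called different between them (1.08% higher), by limma at an adjusted p below 0.05. Nothing is read from this for *Khdc3*, since the contrast chose it. With same-numbered libraries set side by side, *Khdc3* was 7.87- to 18.6-fold higher in each of the 5 *Pcgf1*-KO EB libraries than in its control. Group means were 32 ± 26.4 TPM (SD, n = 5) in *Pcgf1*-KO and 3.10 ± 3.15 TPM (SD, n = 5) in control EBs.

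The level reached in *Pcgf1*-KO EBs differed between series of libraries. The file headers place replicate 1, replicates 2 and 3, and replicates 4 and 5 in 3 series. In replicates 2 and 3, both EB groups were at their lowest, and in replicates 4 and 5 *Khdc3* in *Pcgf1*-KO EBs lay above all 4 control ESC libraries. Control EBs were 6.81- to 68.1-fold below control ESCs of the same number in the 4 pairs there were. *Pcgf1*-KO EBs differed from *Pcgf1*-KO ESCs by a log2 ratio of −1.25 in replicate 1, by −2.90 and −3.02 in replicates 2 and 3 and by 0.36 and 0.18 in replicates 4 and 5. *Pcgf1*-KO EBs thus lay above control EBs in every series, and below *Pcgf1*-KO ESCs in 2 of the 3 series. In replicates 4 and 5 the *Pcgf1*-KO EBs also had their lowest *Fgf5*, at 8.46–11.2 TPM, and their highest *Klf4*, at 62.0–74.6 TPM. The same held for control EBs, at 25.4–26.6 and 11.7–12.4 TPM. Whether the level of *Khdc3* follows the stage reached was not tested.

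**Figure D1:**
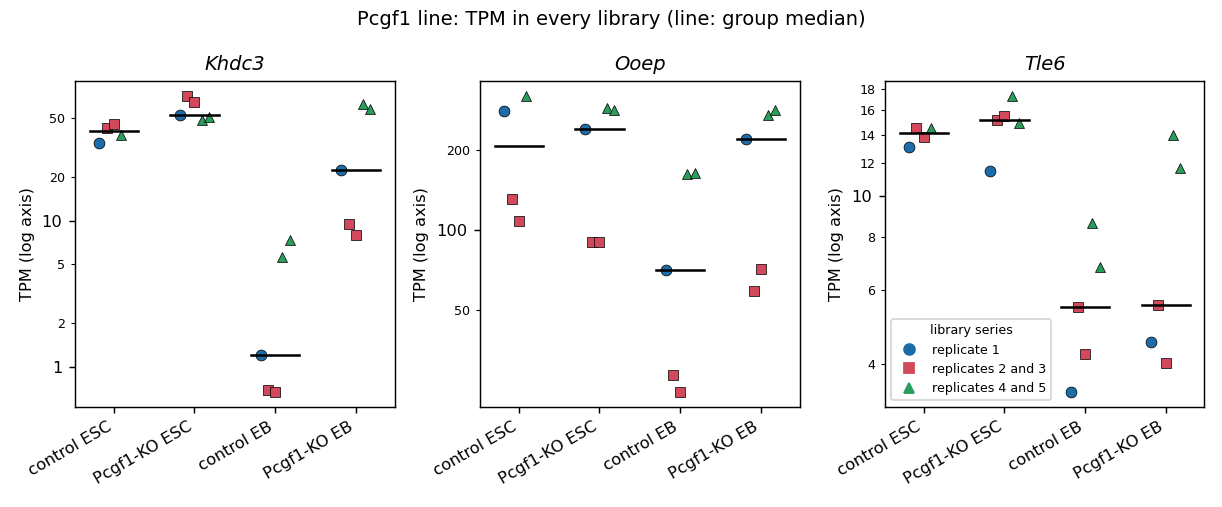
TPM of *Khdc3*, *Ooep* and *Tle6*, on log axes, in each library of the *Pcgf1* line by stage and state, with points coloured by library series and lines at group medians. *Khdc3* lies at 0.673–7.31 TPM in control EBs and 7.91–62.7 TPM in *Pcgf1*-KO EBs, whereas *Tle6* falls from ESCs to EBs in both states.

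In ESCs, where the rule had not been applied, *Khdc3* was at 52.9, 71.3, 65.0, 49.0 and 51.0 TPM in *Pcgf1*-KO replicates 1 to 5. All 5 lay above the 4 control values, and the 4 same-numbered pairs were 1.27- to 1.66-fold higher in the knockout. How many of all genes separate as fully was not counted. The fitted log2 difference of 0.52 (SE 0.68) did not pass (adjusted p = 0.96, limma over all groups of the line), in a comparison in which 0.641% of 20594 genes were called. With the replicate number as a block, 5.31% of genes were called and the log2 difference of *Khdc3* was 0.26 (adjusted p = 0.87, limma). That value lies below all 4 same-numbered pairs, which differed by 0.348–0.727 on the log2 scale. No control ESC library bears number 5, so the blocked fit also draws on the EB libraries and does not summarize the pairs. The separation of the groups in ESCs was therefore not beyond the spread that the fit assigns to *Khdc3*, a spread that includes the scattered EB libraries; with only the ESC libraries fitted, the adjusted p was 0.23.

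*Ooep*, whose product is the small KH-domain partner of KHDC3 and TLE6 in the egg complex, was the most abundant member and varied more between library series than between states. In control ESCs it was at 282, 131, 108 and 322 TPM, and in *Pcgf1*-KO ESCs at 241, 89.7, 89.9, 290 and 285 TPM. In control EBs it was at 70.4, 28.3, 24.4, 163 and 164 TPM, and in *Pcgf1*-KO EBs at 221, 58.6, 71.0, 272 and 283 TPM. In all 4 groups replicates 2 and 3 held the lowest values, which is why the groups overlap although same-numbered libraries keep one order. Control EBs were lower than control ESCs in 4 of 4 pairs, by 1.97- to 4.63-fold. The log2 difference was −1.51 (SE 0.65, adjusted p = 0.104, limma) without a block and −1.75 (adjusted p = 2.36e-06) with the replicate number as a block, so that the fall of *Ooep* passed only once the pairing was modelled. Between these groups 24.9% of genes were called without the block (13.4% lower) and 43.9% with it (23.3% lower).

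In *Pcgf1*-KO cells the level of *Ooep* hardly differed by stage. EBs were 1.01- to 1.53-fold below ESCs of the same number, and the log2 difference of −0.24 did not pass (adjusted p = 0.88, limma), in a comparison that called 18.3% of genes (10.2% lower), or 36.8% with the block (adjusted p = 0.31 for *Ooep*). In the EBs that chose the genes, *Ooep* was 1.67- to 3.13-fold higher in the knockout in 5 of 5 pairs, with group means of 181 ± 109 TPM (SD, n = 5) and 90.1 ± 69.6 TPM (SD, n = 5). In ESCs its log2 difference between knockout and control was −0.12 (adjusted p = 1), lower in 4 of 4 pairs by 1.11- to 1.46-fold.

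*Tle6*, whose product is the Groucho-related subunit, was steady in ESCs and lower in EBs. It was at 13.1, 14.5, 13.8 and 14.5 TPM in control ESCs and at 3.43, 5.47, 4.22, 8.62 and 6.80 TPM in control EBs. The groups did not overlap, though how many of all genes separate as fully was not counted. The log2 difference of −1.35 (SE 0.33) passed (adjusted p = 0.00568, limma), in a contrast that called 24.9% of genes (13.4% lower). *Tle6* also fell in the knockout, from 11.5, 15.1, 15.5, 17.3 and 14.9 TPM in ESCs to 4.50, 5.52, 4.02, 14 and 11.7 TPM in EBs, by 1.07 on the log2 scale (SE 0.31, adjusted p = 0.0225). That fall was seen in 5 of 5 pairs but the groups overlapped, and the call was lost without replicate 1 (adjusted p = 0.0587), replicate 2 (0.131) or replicate 3 (0.14), and when only the 2 groups were fitted (0.0566). Here too replicates 4 and 5 were the highest EB libraries. Between *Pcgf1*-KO and control EBs, *Tle6* was higher in 4 of 5 pairs, at 0.952- to 1.72-fold, the smallest difference of the 3 expressed members. In ESCs its log2 difference was 0.08 (adjusted p = 1), and 3 of the 4 same-numbered pairs were higher in the knockout. The sign of the fitted value turns with the block, in which control ESCs lack a replicate 5. These stage contrasts use the EB libraries in which *Khdc3* was chosen.

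**Figure D2:**
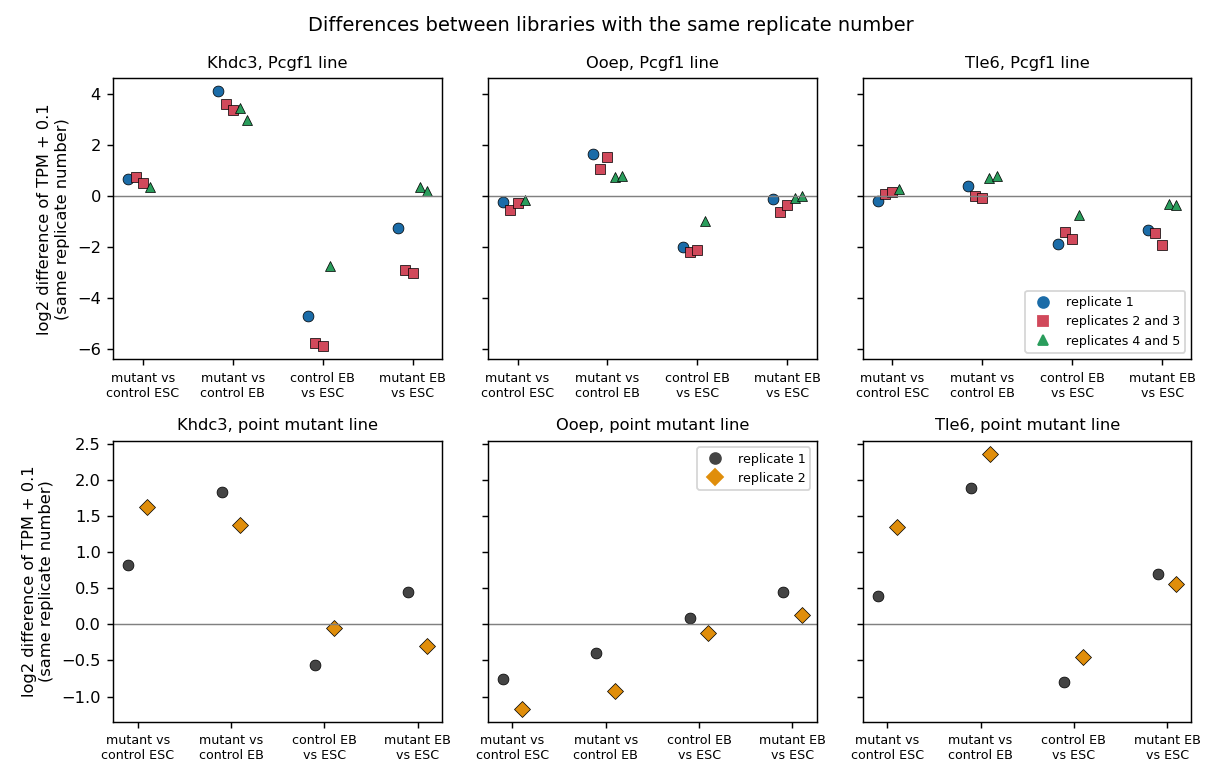
Difference in log2(TPM + 0.1) between same-numbered libraries of the *Pcgf1* line (top) and the point mutant line (bottom) for *Khdc3*, *Ooep* and *Tle6*, each point being 1 pair. In *Pcgf1*-KO against control EBs all 5 *Khdc3* points lie between 2.96 and 4.10 and all 5 *Ooep* points between 0.74 and 1.65, whereas in point mutant against control EBs both *Ooep* points lie below 0.

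*Nlrp5* and *Padi6* stayed too low in the *Pcgf1* line for a fitted difference. *Nlrp5* was at 0.0631–0.479 TPM in control ESCs, 0–0.305 TPM in *Pcgf1*-KO ESCs, 0–0.336 TPM in control EBs and 0.251–0.772 TPM in *Pcgf1*-KO EBs. *Padi6* was at 0.486–1.22 TPM in control EBs and 0–0.421 TPM in *Pcgf1*-KO EBs, the contrast that chose the genes, and no direction is read from such low values. In ESCs *Padi6* was at 0.364–0.939 TPM in controls and 0–0.713 TPM in the knockout, which overlap.

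In the point mutant line, *Khdc3* was higher in mutants at both stages and was not lower in EBs than in ESCs beyond its spread. It was at 49.9 and 37.7 TPM in control ESCs and at 88.5 and 116 TPM in mutant ESCs, a rise of 1.22 on the log2 scale (SE 0.21, adjusted p = 0.0308, limma). Of 20279 genes 2.54% were called in this comparison, 2.34% higher and 0.197% lower. In EBs it was at 33.8 and 36.4 TPM in controls and at 120 and 94.6 TPM in mutants, a rise of 1.60 (SE 0.21, adjusted p = 0.0132), where 4.53% of genes were called, 3.76% higher and 0.764% lower. The log2 difference between control EBs and ESCs was −0.31 (adjusted p = 0.453), with 4.73% of genes called, and that between mutant EBs and ESCs was 0.07 (adjusted p = 0.931), with 0.133% called.

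These calls rest on 2 libraries per group. The *Khdc3* call in ESCs was lost in each of 8 fits that left out 1 library (adjusted p 0.0851–0.231) and was lost with median-of-ratios scaling (0.0613), quantile scaling (0.0567) or only the ESC libraries (0.113). The call in EBs held under every other setting, including both scalings, and was lost in 6 of the 8 fits without 1 library, those without either control EB, mutant EB or mutant ESC library (adjusted p 0.067–0.109). The direction was higher in all these fits. Median-of-ratios and quantile scaling moved the median of all genes by −0.119 and −0.127 in ESCs and by −0.104 and −0.114 in EBs on the log2 scale. The share of called genes that were higher was 92.2% in ESCs and 83.1% in EBs, and with quantile scaling 80.7% and 61.7%.

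*Tle6* rose with *Khdc3* in the EBs. It was at 4.07 and 3.60 TPM in control EBs and 15.3 and 18.9 TPM in mutant EBs, a rise of 2.12 on the log2 scale (SE 0.28, adjusted p = 0.0138, limma). This call, too, was kept under the other settings and lost in the same 6 fits that left out 1 library (adjusted p 0.067–0.0872). In ESCs *Tle6* was at 7.15 and 4.97 TPM in controls and 9.38 and 12.8 TPM in mutants, with a log2 difference of 0.87 (SE 0.28) that did not pass (adjusted p = 0.162). The effect in EBs exceeded that in ESCs by 1.25 (SE 0.40), but this interaction did not pass (adjusted p = 0.671), and only 0.00986% of genes were called in it. Neither stage contrast of *Tle6* passed, at −0.63 in controls (adjusted p = 0.264) and 0.63 in mutants (adjusted p = 0.52).

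*Ooep* moved the other way. It was at 129 and 150 TPM in control ESCs and at 76.5 and 66.6 TPM in mutant ESCs, and fell by 0.96 on the log2 scale (SE 0.18, adjusted p = 0.0443, limma). That call was lost with a pseudocount of 1 (adjusted p = 0.0507), with median-of-ratios (0.0687) or quantile scaling (0.082), with only the ESC libraries (0.0983) and in each of the 8 fits without 1 library (0.0624–0.29). In EBs *Ooep* was at 137 and 138 TPM in controls and 104 and 72.9 TPM in mutants, and the log2 difference of −0.66 (SE 0.18) did not pass (adjusted p = 0.0945). Between control EBs and ESCs *Ooep* differed by −0.02 (adjusted p = 1), with a sign that turns with the scaling, and between mutant EBs and ESCs by 0.29 (adjusted p = 0.622). The 3 expressed members thus did not share a direction in this line, since mutant libraries lay above controls for *Khdc3* and *Tle6* and below them for *Ooep* at both stages.

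For *Khdc3* and *Ooep* the interactions of stage and 4-OHT, 0.38 and 0.30, did not pass (adjusted p = 1 for both). *Nlrp5* was at 0–0.315 TPM and *Padi6* at 0.129–0.877 TPM over the 8 libraries. Among the 4 nearest genes of *Khdc3* and the 4 of *Ooep*, limma called none between mutants and controls (1 at an unadjusted p below 0.05 for each in ESCs, and 0 and 1 in EBs). Over all 20279 genes, 3388 in ESCs and 4188 in EBs were below that threshold. Of the genes taken as neighbours of *Tle6*, the corepressor gene *Tle2* was called in EBs, from 0.306 to 2.24 TPM in the means (log2 difference 2.54, SE 0.51, adjusted p = 0.039). That set leaves out *Aes*, 24.5 kb from *Tle6*, which was also called higher in these EBs. *Tle2* ends 58 bases from *Tle6* on the opposite strand in mm9 and overlaps it in the RefSeq annotation of GRCm38. Whether counting used strand is not given in the sources used here, so reads of the pair could be mixed, which was not tested.

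**Figure D3:**
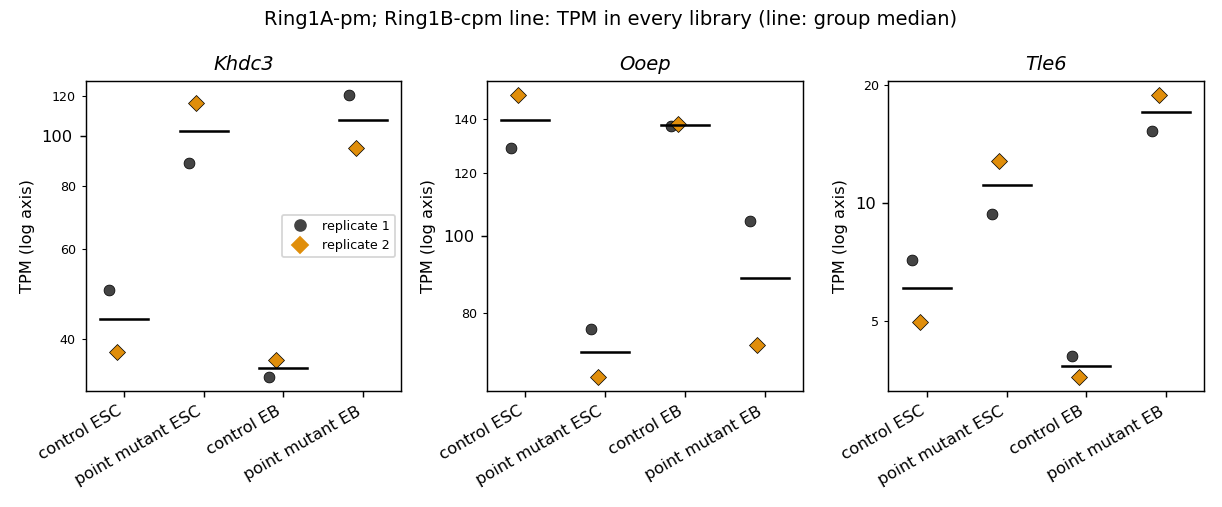
TPM of *Khdc3*, *Ooep* and *Tle6*, on log axes, in the 8 libraries of the point mutant line by stage and state, with a point for each library and lines at group medians. Mutant EBs lie at 94.6–120 TPM for *Khdc3* and 15.3–18.9 TPM for *Tle6*, above their controls, and at 72.9–104 TPM for *Ooep*, below its controls.

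In the other 4 lines the label of a library and the name of its file disagree on stage or state in 21 of 32 libraries. *Fgf5* reached 1 TPM in 9 of 16 libraries labelled EB and in 7 of 16 labelled ESC, whereas by file name it did so in 16 of 16 EB and 0 of 16 ESC libraries. The values are therefore given library by library with both designations and were not tested. Transcripts of the targeted genes, *Rnf2* (which encodes RING1B), *Pcgf2*, *Bmi1* (PCGF4), *Pcgf3*, *Pcgf5* and *Pcgf6*, were present in every library of their lines, at 4.12 TPM or more. *Pcgf6* in its line was at 67.1–105 TPM in the libraries named control and 34.7–46.3 TPM in those named mutant, whereas by label the states overlapped. *Bmi1* in its line was, by file name, higher in mutants, at 7.01–10.03 TPM against 4.12–5.47 TPM, and overlapped by label.

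In the Ring1a-/-;Ring1bf/f line, libraries labelled control ESC held 81.4 and 85.1 TPM of *Khdc3*, and their files carry the same name. It was at 12 and 9.43 TPM in those labelled mutant ESC, whose files are named control EB. It was at 98.4 and 103 TPM in those labelled control EB, named mutant ESC, and at 89.6 and 89.5 TPM in those labelled mutant EB, named likewise. By file name, the control EB libraries are thus the low pair and mutant EBs lie near the ESC level. The same reading puts *Tle6* at 7.18–8.58 TPM in control EBs and 20.3–20.4 TPM in mutant EBs, whereas *Ooep* lies at 49.3–49.9 and 44.4–50.6 TPM, which overlap. By label, the low *Khdc3* pair is mutant ESC.

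In the Pcgf2f/f;Pcgf4f/f line, the pairs that share a label lie far apart. *Khdc3* read 53.4 and 3.59 TPM in libraries with the control ESC label, 50.0 and 3.87 TPM in mutant ESC, 42.2 and 1.12 TPM in control EB and 39.6 and 0.621 TPM in mutant EB. By file name the same values fall into control ESCs at 50.0–53.4 TPM, mutant ESCs at 39.6–42.2 TPM, control EBs at 3.59–3.87 TPM and mutant EBs at 0.621–1.12 TPM. On that reading 1 mutant EB library holds the lowest *Khdc3* value of the series, and the other lies above the 2 lowest control EB libraries of the *Pcgf1* line. *Ooep* would be at 159–161 TPM in control and 153–158 TPM in mutant EBs, against 387–421 TPM in ESCs, and *Tle6* at 4.47–5.74 TPM in EBs against 9.66–14.1 TPM in ESCs.

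In the Pcgf3f/f;Pcgf5f/f line, the control ESC label goes with *Khdc3* levels of 46.2 and 79.7 TPM, against 87.9 and 16.3 TPM in mutant ESC, 21.8 and 6.21 TPM in control EB and 6.22 and 43.2 TPM in mutant EB. By file name these become 79.7–87.9 TPM in control ESCs, 43.2–46.2 TPM in mutant ESCs, 16.3–21.8 TPM in control EBs and 6.21–6.22 TPM in mutant EBs. That order places mutants below controls at both stages. *Ooep* has the same order on that reading, with 214–233 TPM in control and 147–149 TPM in mutant EBs, whereas *Tle6* overlaps, at 8.88–10.4 and 9.39–10.3 TPM.

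In the Pcgf6f/f line, the levels of *Khdc3* by label were 71.5 and 1.66 TPM in control ESC, 70.5 and 2.54 TPM in mutant ESC, 88.3 and 5.31 TPM in control EB and 89.5 and 5.14 TPM in mutant EB. By file name control EBs lie at 1.66–2.54 TPM and mutant EBs at 5.14–5.31 TPM, both far below the ESCs at 70.5–89.5 TPM. *Tle6* would be at 2.83–3.68 TPM in control and 4.25–4.40 TPM in mutant EBs, and *Ooep* at 148–151 and 114–149 TPM. None of these differences has a test.

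**Figure D4:**
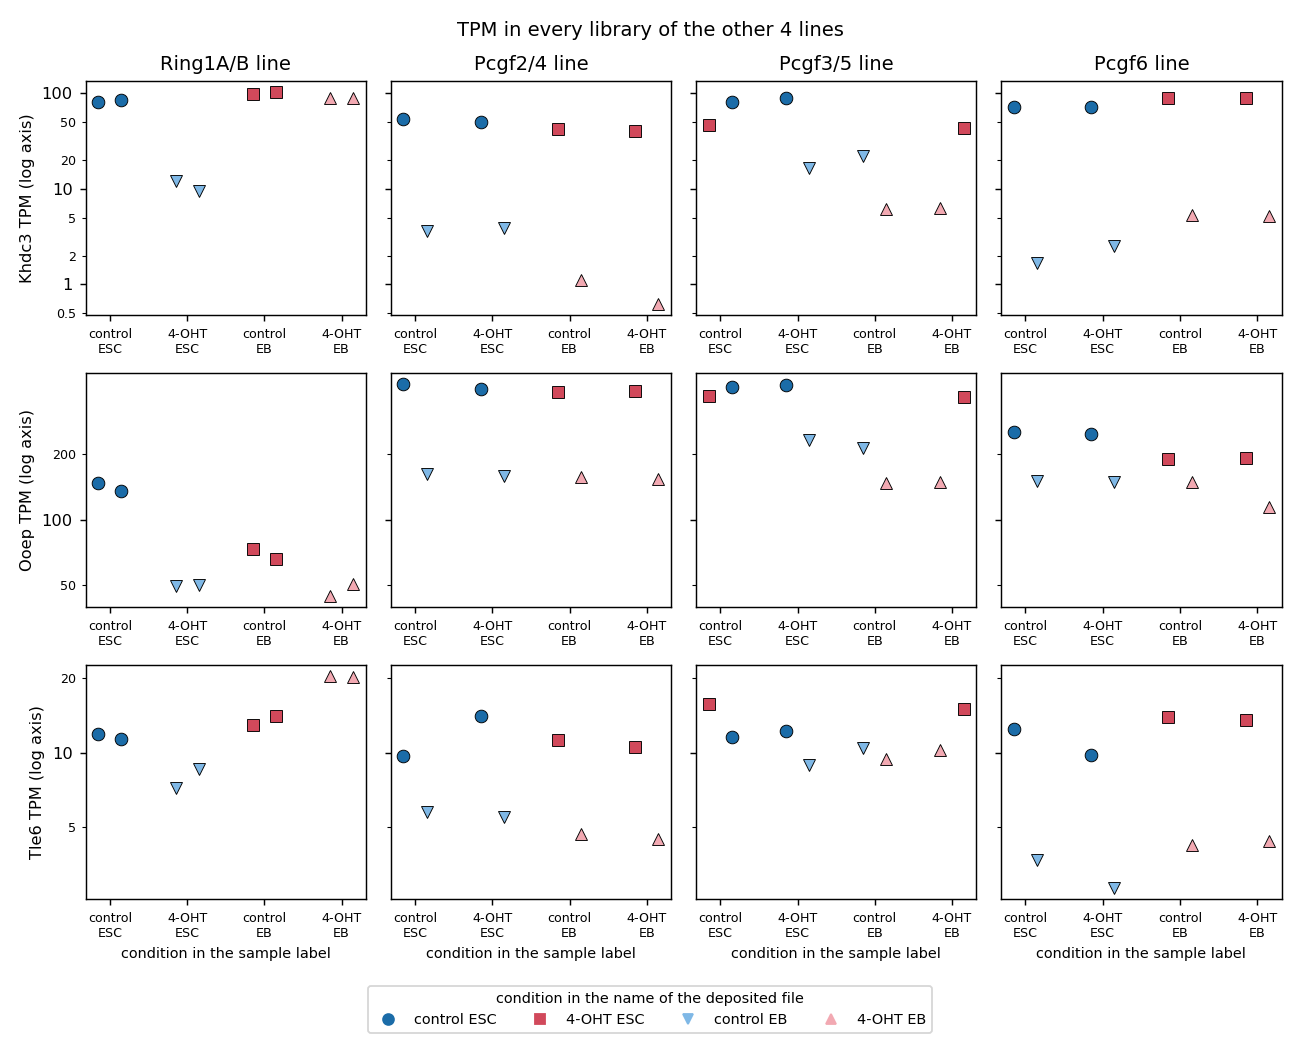
TPM of *Khdc3*, *Ooep* and *Tle6* (rows), on log axes, in each of the 32 libraries of the other 4 lines (columns), placed by label and marked by the condition in the file name. In 3 of the lines *Khdc3* libraries that share a label lie apart, as at 53.4 and 3.59 TPM for control ESCs of the Pcgf2f/f;Pcgf4f/f line, and those that share a file-name condition lie together.

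Across all 59 libraries the genes whose log2 level was most like that of *Khdc3* were *Aes* (Pearson r = 0.915, Spearman rho 0.807), *Hal* (0.894), *Tnip2* (0.891), *Hoxc4* (0.877) and *Slc15a1* (0.875), among 13723 genes with a mean of at least 1 TPM. *Aes* is a short Groucho family member and lies 24.5 kb from *Tle6* on chromosome 10. *Hal* encodes histidine ammonia-lyase and *Slc15a1* a peptide transporter of the plasma membrane. *Tle6* ranked 96th (r = 0.767, rho 0.753) and *Ooep* 3464th (r = 0.292, rho 0.05). Without the 2 libraries farthest from the median of *Khdc3*, r was 0.752 for *Tle6* and 0.225 for *Ooep* over 57 libraries. These are descriptions, since libraries share lines, series and stage, and *Klf4*, an ESC transcription factor that falls on differentiation, was related to *Khdc3* by r = 0.819 and *Fgf5* by r = −0.746.

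Within lines *Khdc3* and *Tle6* were related by r between 0.642 and 0.978. For *Khdc3* and *Ooep* r was between 0.400 and 0.981 in 5 lines but −0.866 in the point mutant line, over 8 libraries. The low r of *Ooep* over the series thus holds lines of both signs. *Ooep* itself was related by r = 0.782 to *Dppa5a*, a KH-domain gene of pluripotent cells that lies 7.9 kb from it.

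**Figure D5:**
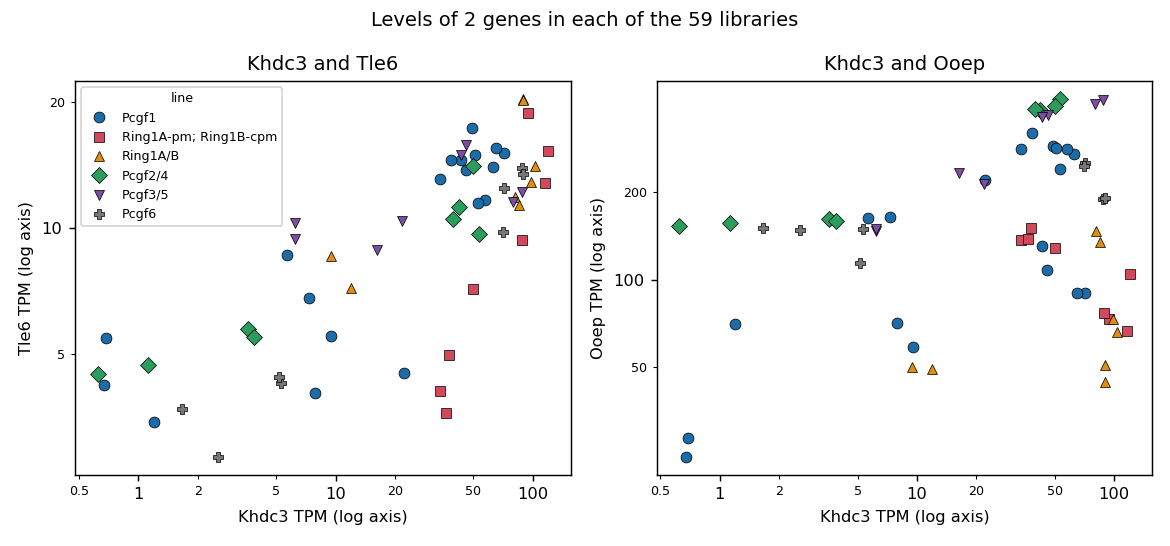
TPM of *Tle6* (left) and *Ooep* (right) against TPM of *Khdc3*, on log axes, in the 59 libraries, with a point for each library coloured by line. *Tle6* is related to *Khdc3* with r = 0.767 and *Ooep* with r = 0.292, and the 8 point mutant libraries run downward in the *Ooep* panel.

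Of 46 tested genes in 5 lists of oocyte genes and relatives of the members, 2 were called between *Pcgf1*-KO and control EBs, beside 1.95% of all genes. Of 27 tested maternal factors of the egg, limma called none, although 6 had an unadjusted p below 0.05, beside 2470 of all 20594 genes. The median log2 difference of these factors was 0, against −0.03 over all genes. Of 7 oocyte transcription factors, *Sohlh2*, which acts early in oocyte growth, fell from 14.5 to 4.83 TPM in the means (log2 difference −1.53, SE 0.38, adjusted p = 0.0458, limma). Of the 4 paralogues of *Padi6*, *Padi3* fell from 7.81 to 2.45 TPM (−1.69, SE 0.30, adjusted p = 0.00586). Neither the 3 KH-domain relatives nor the 5 *Tle6* paralogues included a called gene (0 and 2 at an unadjusted p below 0.05). Nor did the 13 genes taken as neighbours of *Khdc3*, *Ooep* and *Tle6*, a set without *Aes* (1 at an unadjusted p below 0.05). With the replicate block, which called 10.4% of genes, *Mos*, *Taf4b* and *Padi2* were also lower and *Dppa5a*, *Aes* and *Tle4* also higher, which makes 1 of 27 maternal factors. In ESCs limma called no gene of the 5 lists between knockout and control without the block. There 7 of 46 had an unadjusted p below 0.05, beside 1777 of all 20594 genes. With the block, which called 5.31% of genes, *Kpna7*, *Npm2*, *Zp1*, *Sohlh2* and *Padi3* were lower.

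From control ESCs to control EBs of the *Pcgf1* line, the maternal factors had no common direction, with 5 of 27 higher and 4 lower, beside 24.9% of all genes called. *Tcl1*, which encodes a coactivator of AKT, fell from 85.3 to 12.9 TPM on the mean (log2 difference −3.01, SE 0.65, adjusted p = 0.00206, limma), whereas *Zbed3*, whose product binds the maternal complex in eggs, rose from 9.44 to 22.1 TPM (1.23, SE 0.30, adjusted p = 0.00496). *Nlrp4c* rose from 0.0927 to 1.39 TPM. The other called maternal factors stayed below 1 TPM in the means of both groups. Of the transcription factors, *Sohlh2* fell from 35.7 to 14.5 TPM (adjusted p = 0.0109) and *Sohlh1* was higher but below 1 TPM.

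The paralogues of *Padi6* and *Tle6* included genes that fell with stage. *Padi2* fell from 16.8 to 0.956 TPM (log2 difference −3.86, SE 0.39, adjusted p = 1.22e-06) and *Padi4* from 8.26 to 2.51 TPM (adjusted p = 0.000465), and 3 of the 4 paralogues of *Padi6* were called lower, or all 4 with the block. *Aes* fell from 227 to 57.4 TPM (adjusted p = 0.000539). *Dppa5a* was called lower with the block and not without it. In *Pcgf1*-KO cells the stage contrast called 18.3% of all genes (10.2% lower). Among the maternal factors it called *Zbed3*, *Nlrp14* and *Nlrp4c* higher and *Tcl1* lower. It also called *Sohlh2* lower, *Tle4* higher, *Aes* lower and all 4 paralogues of *Padi6* lower. *Padi2* fell by 4.02 on the log2 scale there (SE 0.36, adjusted p = 3.83e-07).

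In the point mutant EBs 7 of 47 tested genes of the lists were called, all higher, beside 4.53% of all genes (3.76% higher). *Tcl1* rose from 45.3 to 130 TPM (log2 difference 1.55, SE 0.22, adjusted p = 0.0162, limma) and *Aes* from 143 to 292 TPM (1.05, SE 0.20, adjusted p = 0.0326). *Zar1*, a maternal factor for the transition from egg to embryo, was listed at 0 in both controls and averaged 2.45 TPM in mutants (adjusted p = 0.0104). Of the 7 oocyte transcription factors 3 were called higher, namely *Lhx8* from 0.0384 to 2.19 TPM (adjusted p = 0.0336), *Nobox* from 0.196 to 2.33 TPM (adjusted p = 0.0491) and *Sohlh1* from 0.801 to 4.17 TPM (adjusted p = 0.0486). Of the factors not called, *Sohlh2* was lower in mutants, at 77.0 against 104 TPM in the means, and *Figla* higher, at 7.47 against 1.79 TPM. The list of these factors had a median log2 difference of 2.29, against 0.10 over all genes. *Tle2* was the seventh call. Median-of-ratios scaling left 5 of the 7 calls and quantile scaling 2, *Tcl1* and *Zar1*, with the direction kept in all.

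In point mutant ESCs *Zar1* was the only one of 47 tested listed genes called, beside 2.54% of all genes. It went from 0.0622 to 1.47 TPM (log2 difference 3.38, adjusted p = 0.0248), a call that quantile scaling lost. From control ESCs to control EBs of that line, limma called 4.73% of all genes. *Tcl1* fell by 1.53 on the log2 scale (adjusted p = 0.0133, limma), *Aes* by 1.48 (adjusted p = 0.00931) and *Padi2* by 2.45 (adjusted p = 0.0384). Limma called no listed gene between mutant EBs and mutant ESCs or in the interaction (3 and 4 of 47 at an unadjusted p below 0.05). Over all 20279 genes, 1974 and 1076 were below that threshold. The lists were drawn up with results of these data known, and their counts are descriptions beside the shares of all genes given above.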

How the data were processed

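Poly(A) RNA of 59 libraries was sequenced by the authors as 75 or 50 bp single-end reads, aligned to mm9 with STAR 2.5.2b and counted on exons. The deposited values are TPM per gene symbol (24391 genes), and the step from counts to TPM is not described in the sources used here. Depth is unknown, so precision rests on replicates. Genes listed at 0 numbered 6039–9139 per library, and none of 1711 library pairs was identical. The authors' processing notes also name DESeq2, which needs counts and was not run here.

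Groups were taken from the sample labels. In the *Pcgf1* and point mutant lines, log2(TPM + 0.1) of genes above 0 in at least 1 library was fitted per line over 4 groups with limma 3.58.1 (R 4.3.3, trended empirical Bayes, 2-sided), with Benjamini-Hochberg adjustment over all genes and calls at an adjusted p below 0.05. Fold changes are on that scale, which understates changes of low genes. Fitted values are given for members that averaged 1 TPM or more in either group. Called genes of the lists are named with values where either group averaged 1 TPM or more, up to 4 per list by size of change, and otherwise by name only. Likeness to *Khdc3* was ranked by Pearson r over 59 libraries. Members and gene lists were chosen with earlier results of these data known. In the other 4 lines, labels and file names disagree and no test was run.

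In the *Pcgf1* line the replicate numbers pair the libraries. Deviations of same-numbered libraries from their group means correlated in each of 27 pairs (r 0.317–0.653, over 13400 genes). One *Pcgf1*-KO EB library is replicate 4 by title and 5 by another label, and the title was used. On simulated data with 200 changed genes, the ESC fit recovered 35% of log2 changes of 1 and 77% of those of 2 in the *Pcgf1* design (20594 genes), with 7.4% of calls false. For the point mutant design (20279 genes) these shares were 21%, 58% and 4.8%. The simulated libraries varied independently, without the pairing of the real ones, and the changed genes were drawn from those above about 1 TPM. These shares therefore need not hold for the real libraries or for lower genes. Alternatives were the pseudocount, scaling, low-value filter, block, groups fitted and leaving out libraries. The block by library series and the fits without 1 library in the point mutant line were added after seeing the data. Figures were drawn with matplotlib 3.10.9 (Python 3.11.15).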

Additional observations from a re-analysis of the deposited data

Results flagged for a closer look

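*Ooep* and *Tle6* moved in opposite directions in the *Pcgf1* and point mutant lines in contrasts where every same-numbered pair of a line moved one way. Between mutant and control EBs, the median log2 difference of *Ooep* was 1.045 in the *Pcgf1* line (higher in 5 of 5 pairs) and −0.659 in the point mutant line (lower in 2 of 2). Between mutant EBs and mutant ESCs, that of *Ooep* was −0.125 in the *Pcgf1* line (lower in 5 of 5) and 0.289 in the point mutant line (higher in 2 of 2). In the same contrast that of *Tle6* was −1.331 in the *Pcgf1* line (lower in 5 of 5) and 0.627 in the point mutant line (higher in 2 of 2). In each case the difference between the lines was not tested. None of these point mutant differences passed in its fit, and neither did that of *Ooep* between *Pcgf1*-KO EBs and ESCs. The EB contrast of the *Pcgf1* line is the one that chose the genes. With only 2 pairs, a shared direction carries little weight. Dixon's test for a single extreme library flagged none in the 20 sets of member values that had 4 or 5 libraries. Libraries that lie apart together, such as replicates 4 and 5, can hide each other from this test.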

How the results depend on the processing

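Of the fitted differences of *Khdc3*, *Ooep* and *Tle6*, 157 were kept under settings other than leaving out libraries, 8 lost their call, 2 gained one and 4 turned direction. For tested values, kept means the same direction and side of the threshold. For values without a test, it means a shift smaller than the SD within groups. When libraries were left out, 164 were kept, 31 lost their call, 12 untested values moved and 3 turned. The lost and gained calls are given with the results above, and the causes were not tested. *Ooep* in control EBs against control ESCs of the point mutant line turned to 5e-04 with median-of-ratios scaling, 0.0678 with quantile scaling and 0.0945 without control ESC replicate 2 (−0.125 to 0.0945 over the fits without 1 library). *Khdc3* in mutant EBs against mutant ESCs of that line turned to −0.123 without mutant ESC replicate 1 and −0.100 without mutant EB replicate 1 (−0.296 to 0.44 over all left out).

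Blocking on the replicate number raised the counts of called genes from 132 to 1094 in *Pcgf1*-KO against control ESCs, from 5138 to 9050 and from 3770 to 7573 in the stage contrasts of control and *Pcgf1*-KO cells, and from 402 to 2143 in *Pcgf1*-KO against control EBs. With the library series as a block they were 1347, 9255, 7886 and 2470. *Tle6* in *Pcgf1*-KO against control ESCs turned to −0.0136 with the replicate block and −0.028 with the series block, and no call of a member other than that of *Ooep* changed with either. In the point mutant line, where 2 numbers cannot show pairing (r 0.106–0.381 over 12 pairs), the replicate block gave 1326 calls in ESCs, 2056 in EBs, 2018 and 102 in the stage contrasts of control and mutant cells and 4 in the interaction, against 515, 918, 960, 27 and 2.

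A pseudocount of 1 gave 233 calls in *Pcgf1*-KO against control ESCs, 5 in mutant EBs against mutant ESCs and 13 in the interaction. Median-of-ratios and quantile scaling gave 208 and 207 in the first of these, and quantile scaling 207 in point mutant ESCs and 42 in mutant EBs against mutant ESCs. The share of calls that were higher moved with quantile scaling from 55.2% to 66.7% in *Pcgf1*-KO against control EBs and from 37% to 52.4% in mutant EBs against mutant ESCs. Fitting only the groups compared gave 68 calls in *Pcgf1*-KO against control EBs, 169 in point mutant EBs, 464 in control EBs against control ESCs of that line and, by limma, 0 in point mutant ESCs and 0 in mutant EBs against mutant ESCs, where 3669 and 1945 genes had an unadjusted p below 0.05. Leaving out 1 replicate number of the *Pcgf1* line gave 8–61 calls in ESCs, 3459–4536 and 2555–3221 in the stage contrasts and 67–314 in EBs. Leaving out 1 library of the point mutant line gave 22–52 calls in ESCs, 9–357 in EBs, 156–533 and 0–78 in the stage contrasts and 0–42 in the interaction. The counts of 0, by limma, came without either control ESC library, with 1156–2109 genes at an unadjusted p below 0.05. Leaving out a replicate number there left no residual degrees of freedom, so no test was possible. With 1 library in a group, that library is assumed to vary like the others. Depth is unknown, so differences of *Nlrp5* and *Padi6* below about 1 TPM could not be judged.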
